A study of Arabidopsis thaliana with 2 samples.

Results

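The genes described here are the 52 nuclear genes of Arabidopsis thaliana that encode light-harvesting and photosystem proteins, out of 27444 protein-coding genes on chromosomes 1 to 5. They were chosen by name and by what they encode, with earlier results of these data known. A symbol or synonym in the gene table had to start with LHCA, LHCB, PSA or PSB and name such a protein. In this choice 7 genes of assembly and auxiliary proteins were kept, and 11 other genes with these letters were set aside for what they encode. The measurement was chromatin immunoprecipitation with sequencing (ChIP-seq), which recovers and sequences the DNA that lies near a chosen protein, in roots of plants with a green fluorescent protein fusion of the bZIP transcription factor TGA1 (TGA1-GFP). Both libraries came from these plants, cross-linked with 1% formaldehyde: 1 library was made with a GFP antibody and 1 with IgG, an antibody preparation with no chosen target, so neither antibody had a replicate. The promoter that drives the fusion, the genetic background, the age of the plants and their nitrogen supply are not stated in the labels used here. The deposited data were 1 list of 8002 peaks with chromosome, start and end, without heights, p-values or read counts, so depth is unknown and no peak has an error. No expression values were analysed here, so the root label could not be checked against marker genes.

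Photosystems I and II are the pigment-protein complexes of the thylakoid membrane that turn light into electron flow. Their antennae, the LHCA proteins at photosystem I and the LHCB proteins at photosystem II, bind chlorophyll and pass on the energy of light. Many subunits are encoded in the nucleus, and these genes are known for high, light-dependent expression in green shoot tissue and low expression in roots, so in a root experiment they form a set of shoot genes.

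A gene was counted as having a peak when the midpoint of a peak lay inside it or within 1000 bp of either end. Of the 52 genes, 13 had a peak, which is 25% (exact 95% binomial interval 14.0 to 38.9%, counting genes and covering nothing else), beside 24.6% of all protein-coding genes. The share of light-harvesting and photosystem genes with a peak was near the background share, and a share this near to it is not a result about these genes. With a limit of 500 bp the count was 9 (19.1% of all genes), without midpoints more than 200 bp deep in the gene it was 12 (22.8%), and with any overlap of a peak with the gene and 1000 bp on each side it was 14 (26.7%), each time near the background. The 13 genes were LHCA1, LHCB4.1, LHCB4.3, PSAE-2, PSAK, PSBO1, PSBO2, PSBQ-2, PSBR, PSB27, PSB28, PSB33 and PSI-P. The other 39 had no midpoint within reach. Without the 7 genes of assembly and auxiliary proteins, 9 of 45 had a peak, 20%, beside the same 24.6% of all genes. By role, peaks were found at 1 of 6 LHCA genes, 2 of 15 LHCB genes, 2 of 12 genes of photosystem I subunits, 4 of 12 genes of photosystem II subunits and 4 of 7 genes of assembly and auxiliary proteins. With groups this small the intervals overlap widely, from 1.66 to 40.5% for LHCB genes and from 18.4 to 90.1% for the auxiliary group, and differences between the groups were not tested.

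**Figure D1:**
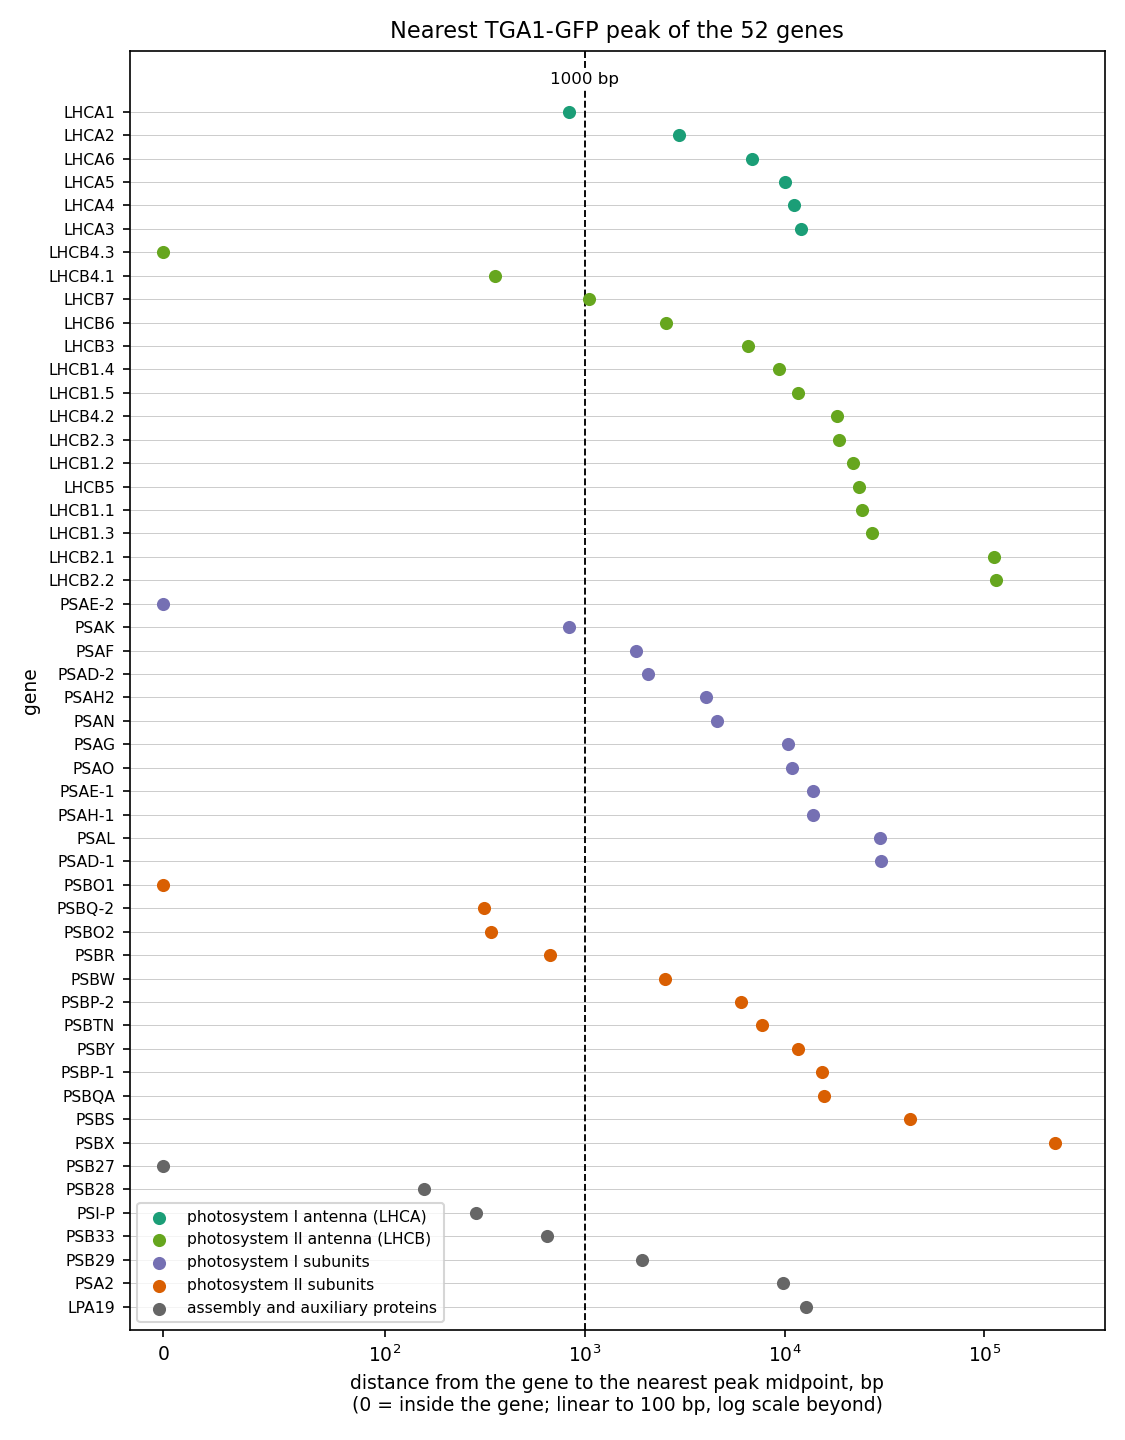
Distance in bp from each of the 52 genes (rows, coloured by role) to the nearest peak midpoint, with 0 for a midpoint inside the gene; the axis is linear to 100 bp and logarithmic beyond, and the dashed line marks 1000 bp. The 13 genes with a peak lie left of the line, LHCB7 at 1053 bp lies just right of it, and PSBX at 226133 bp lies farthest away.

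The antenna of photosystem I had a peak at LHCA1 (AT3G54890) alone among its 6 genes. This peak was 400 bp wide (chromosome 3, 20338472 to 20338871, TAIR10), stood at place 3293 of the list and had its midpoint 833 bp outside the gene. It lay closer to the neighbouring gene AT3G54880, at 73 bp. The peak thus cannot be tied to LHCA1 rather than to its neighbour. LHCA2, LHCA3 and LHCA4, which with LHCA1 make up the antenna belt of photosystem I, had their nearest midpoints 2978, 12083 and 11126 bp away. LHCA5 and LHCA6, which link photosystem I to the chloroplast NDH complex, had theirs at 10043 and 6852 bp.

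The LHCB1, LHCB2 and LHCB3 genes, which encode the trimeric main antenna LHCII, had no peak at any of their 9 loci. All 9 were more than 5000 bp from a midpoint, as were 49.4% of all protein-coding genes, and 5 of the 9 stand in 2 clusters. On chromosome 1, LHCB1.2 (AT1G29910), LHCB1.1 (AT1G29920) and LHCB1.3 (AT1G29930) stand side by side within 6835 bp, and the nearest midpoint was 21886, 24262 and 27491 bp away, respectively. They share that single nearest peak, so the distances are not independent. LHCB1.5 (AT2G34420) and LHCB1.4 (AT2G34430), neighbours on chromosome 2, were 11700 and 9350 bp from theirs. LHCB2.1 and LHCB2.2 lay in a stretch of chromosome 2 that was empty of peaks, at 111056 and 114824 bp, and had 0 peaks within 50 kb of the gene's centre, against a median of 7 for all protein-coding genes. LHCB2.3 and LHCB3 were 18684 and 6586 bp away. The distances thus ran from 6586 to 114824 bp, beside a median of 4883.5 bp for all protein-coding genes. Genes of 1 family can be so alike in sequence that reads are hard to place; how the authors treated such reads is not stated in the labels used here, and whether this bears on the empty loci was not tested.

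Of the 3 LHCB4 genes, which encode CP29, a monomeric antenna protein between the core and LHCII, 2 had a peak. Over LHCB4 to LHCB7 it was 2 of 6 genes, beside 24.6% of all protein-coding genes. LHCB4.3 (AT2G40100), the gene of an atypical CP29, had peaks at both ends. One, 1006 bp wide (chromosome 2, 16747099 to 16748104, place 2390), was centred 177 bp beyond the gene and covered 326 bp of it. The other was 251 bp wide (16745574 to 16745824, place 7961) and had its midpoint 71 bp inside the opposite end. A wider peak of 1519 bp (16743727 to 16745245, place 1176) had its midpoint 1142 bp away, inside the neighbouring gene AT2G40095, so that 3 peaks flanked or entered this gene. The 1006 bp peak was nearly as close to AT2G40110, at 230 bp.

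At LHCB4.1 (AT5G01530) a peak of 872 bp (chromosome 5, 210470 to 211341) stood at place 310, the earliest place of any peak counted for these genes. Its midpoint was 357 bp outside LHCB4.1 and it covered 79 bp of the gene, but LECRKA4.1, a lectin receptor kinase gene, was closer at 74 bp. A second peak of 548 bp on the other side, at place 599, had its midpoint 1624 bp from LHCB4.1 and inside AIRP2. LHCB4.2 (AT3G08940), the remaining CP29 gene, had no midpoint within 18286 bp. The CP29 genes thus differed among themselves. LHCB5 (CP26) and LHCB6 (CP24) were 23541 and 2552 bp from a midpoint. LHCB7 (AT1G76570) was the gene just outside the limit: a 681 bp peak (chromosome 1, 28727605 to 28728285) had its midpoint 1053 bp away, and CP12-3 was closer to it at 261 bp. On the inner side of the limit stood a peak of PSBQ-2 at 987 bp and the peaks of LHCA1 and PSAK at 833 and 831 bp.

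Among the photosystem I subunits, PSAE-2 (AT2G20260) and PSAK (AT1G30380) had peaks. PSAE and PSAD form the stromal side of the complex, where ferredoxin docks. The PSAE-2 peak was 333 bp wide (chromosome 2, 8736650 to 8736982, place 6157), covered 249 bp of the gene and had its midpoint 82 bp inside one end; its neighbour AT2G20250 was 219 bp away. The copy PSAE-1 (AT4G28750) had no midpoint within 13797 bp. PSAK, an intrinsic subunit that binds the antenna, had a 948 bp peak (chromosome 1, 10720879 to 10721826, place 4057) centred 831 bp from the gene, closer to DLAH at 509 bp. That is wide for its place in the list, as shown in the plot of width against place.

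The remaining 10 genes of photosystem I subunits had no peak, with nearest midpoints from 1814 to 30452 bp. PSAF (AT1G31330), the lumenal docking site of plastocyanin, was the closest of them. The peak beside it, 354 bp wide (chromosome 1, 11212686 to 11213039), lay 96 bp from LBD4. PSAD-2 and PSAD-1 were 2073 and 30452 bp away, and PSAH2 and PSAH-1, which help LHCII to dock at photosystem I, 4058 and 13813 bp. Neither pair of copies had a peak. PSAG, PSAL, PSAN and PSAO were between 4567 bp (PSAN) and 29917 bp (PSAL) from a midpoint.

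In photosystem II, 4 of the 7 genes of PSBO, PSBP, PSBQ and PSBR, proteins of the oxygen-evolving side, had a peak and 0 of the other 5 genes of subunits did, beside 24.6% of all protein-coding genes. This split was drawn after the values were seen and was not tested. PSBO1 (AT5G66570) and PSBO2 (AT3G50820), which encode the protein that stabilises the manganese cluster, both had peaks. The PSBO1 peak was 304 bp wide (chromosome 5, 26568437 to 26568740, place 5403), with its midpoint 16 bp inside one end and no other protein-coding gene within 1000 bp. The PSBO2 peak was 469 bp wide (chromosome 3, 18890299 to 18890767, place 3347), 341 bp outside the gene and 270 bp from AT3G50810. PSBO was thus the only 1 of the 9 families with several genes in which every copy had a peak. Both copies kept their peak with a limit of 500 bp. PSBO2 lost its peak when each peak went to its nearest gene alone, or had to touch the gene. PSBO1 lost its peak with the wider peaks alone and with the earlier part of the list alone, both described below. The same share over all gene families was not computed.

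PSBQ-2 (AT4G05180), an extrinsic subunit beside PSBO, had 2 peaks on the same side, with no other protein-coding gene within 1000 bp of either midpoint. The nearer was 421 bp wide (chromosome 4, 2671000 to 2671420, place 4779) and centred 313 bp from the gene, and the farther was 465 bp wide (2670304 to 2670768) and centred 987 bp from it. The farther peak stood at place 584, well before the nearer. The copy PSBQA (AT4G21280) was 15708 bp from a midpoint. PSBR (AT1G79040), a small lumenal subunit that supports PSBP and PSBQ, had a 445 bp peak (chromosome 1, 29735061 to 29735505, place 3147) 669 bp outside the gene, with AT1G79030 at 839 bp. PSBP-1 and PSBP-2 had nearest midpoints at 15468 and 6049 bp.

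PSBS (AT1G44575), the sensor protein of photoprotective quenching, had its nearest midpoint 42383 bp away. PSBX was farthest from any peak among the 52 genes, at 226133 bp, and like LHCB2.1 and LHCB2.2 had 0 peaks within 50 kb. These 3 genes were 5.77% of the 52, beside 3.36% of all protein-coding genes with no peak within 50 kb. PSBTN, PSBW and PSBY were 7748, 2534 and 11728 bp from a midpoint.

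Of the 7 genes of assembly and auxiliary proteins, 4 had a peak, beside 24.6% of all protein-coding genes. PSB27 (AT1G03600), of a family of photosystem II assembly and repair factors, had a 282 bp peak wholly inside the gene (chromosome 1, 898580 to 898861, place 7738), its midpoint 240 bp from one end. PSB28 (AT4G28660), an assembly factor in cyanobacteria, had a 327 bp peak (chromosome 4, 14149529 to 14149855, place 7740). It was centred 157 bp outside the gene and covered 7 bp of it. No other protein-coding gene lay within 1000 bp of these midpoints, and both peaks stood near the end of the list.

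The remaining peaks of the auxiliary group lay closer to a neighbour. PSB33 (AT1G71500) had a 581 bp peak (chromosome 1, 26937963 to 26938543, place 1922) 646 bp away, with AT1G71520 at 116 bp. PSI-P (AT2G46820), once named a photosystem I subunit and now known as the thylakoid curvature protein CURT1B, had a 284 bp peak (chromosome 2, 19245287 to 19245570, place 7581) 287 bp away. That peak lay 163 bp from CCA1, a MYB transcription factor of the circadian clock that is known for binding an LHCB1 promoter. PSB29 (AT2G20890), also called THF1, was 1924 bp from a 442 bp peak (chromosome 2, 8985440 to 8985881) that lay 299 bp from ERF53. PSA2 and LPA19 were 9777 and 12810 bp from a midpoint. A second peak near PSB27, 268 bp wide at place 6090, was 1995 bp away and inside AT1G03590.

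**Figure D2:**
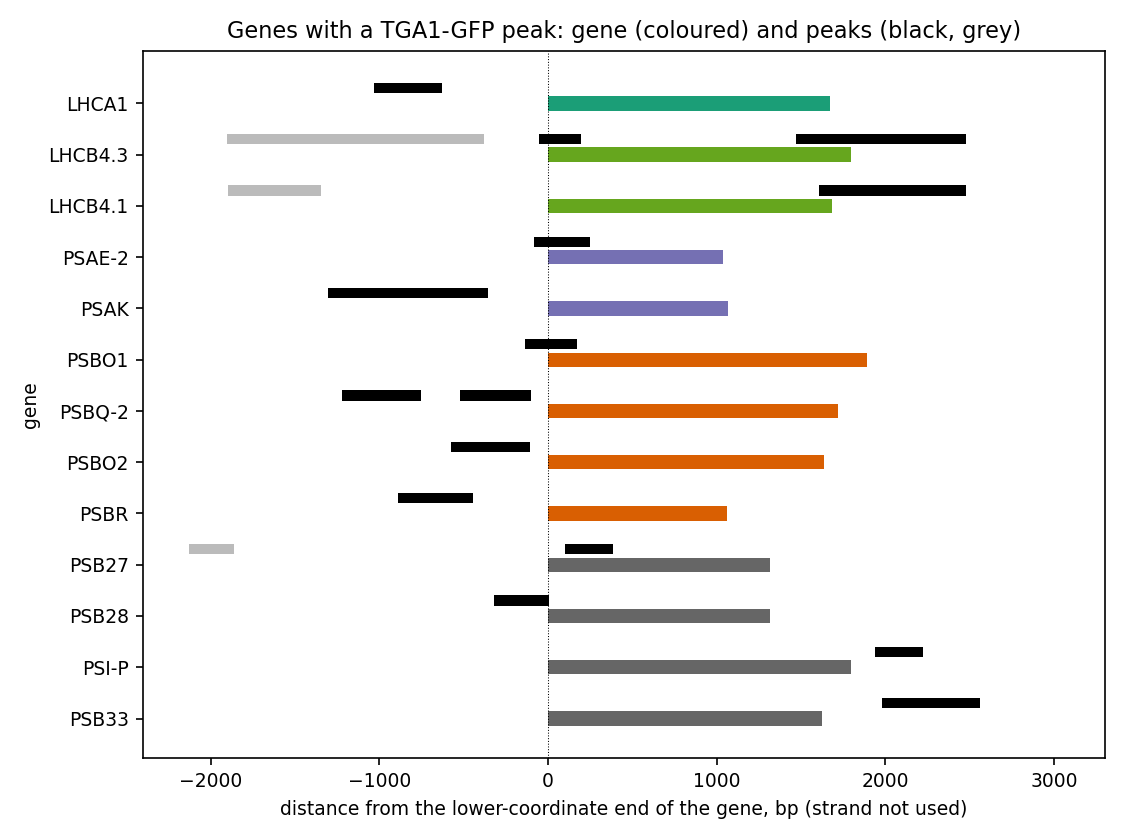
The 13 genes with a peak, drawn to scale from the lower-coordinate end of the gene (x axis, bp; strand not used); coloured bars are genes, black bars peaks counted for the gene and grey bars peaks with a midpoint from 1000 to 2000 bp away. At LHCB4.3, PSAE-2, PSBO1 and PSB27 a counted peak has its midpoint inside the gene, between 16 and 240 bp from an end.

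The 13 genes rested on 15 pairs of a gene and a peak, and no peak was shared between them. In 9 of these 15 pairs (60%) the gene was the nearest protein-coding gene, beside 73.9% of the 8434 pairs over all protein-coding genes. In 10 of the 15 pairs another protein-coding gene also lay within 1000 bp. The same share over all pairs was not computed, so this count describes these pairs alone. When each peak was given to its nearest gene alone, the count fell to 7 of 52 genes, 13.5%, beside 18.6% of all genes. The genes left were LHCB4.3, PSAE-2, PSBO1, PSBQ-2, PSBR, PSB27 and PSB28, so LHCA1, LHCB4.1, PSAK, PSBO2, PSB33 and PSI-P owed their peak to a window shared with a neighbour. A peak overlapped the gene itself at 6 of 52 genes, 11.5%, beside 14.9% of all genes. The midpoint was inside the gene at 4 of 52 genes, 7.69%, beside 6.69% of all genes. These 4 midpoints lay 16, 71, 82 and 240 bp from the nearer end, while the 2057 pairs with the midpoint inside a protein-coding gene had a median of 207 bp. No non-coding gene or pseudogene of the table covered the midpoint of any of the 15 peaks. Of the 13 genes, LHCB4.3 and PSBQ-2 had 2 peaks, which is 3.85% of the 52, beside 5.24% of all protein-coding genes with 2 or more.

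The peaks at these genes were of ordinary width. Their median was 421 bp (range 251 to 1006 bp), beside 434 bp for all 8002 peaks, and 7 of 15 were wider than that median. At 1000 bp or more there was 1 of 15, the LHCB4.3 peak, beside 9.14% of all peaks, and 6 of 15 were narrower than 350 bp, beside 29.4%. Their median place was 4057 of 8002, and 7 of 15 stood in the earlier of 2 equal parts of the list. The file does not say what its order stands for. With the earlier part alone 7 of 52 genes had a peak, 13.5%, beside 13.2% of all genes, and with the wider 4001 peaks 7 of 52 again, beside 13.0%. The peaks of PSAE-2, PSBO1, PSB27, PSB28 and PSI-P were in neither part, and 6 genes, LHCB4.1, LHCB4.3, PSBO2, PSBQ-2, PSBR and PSB33, kept a peak in both.

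**Figure D3:**
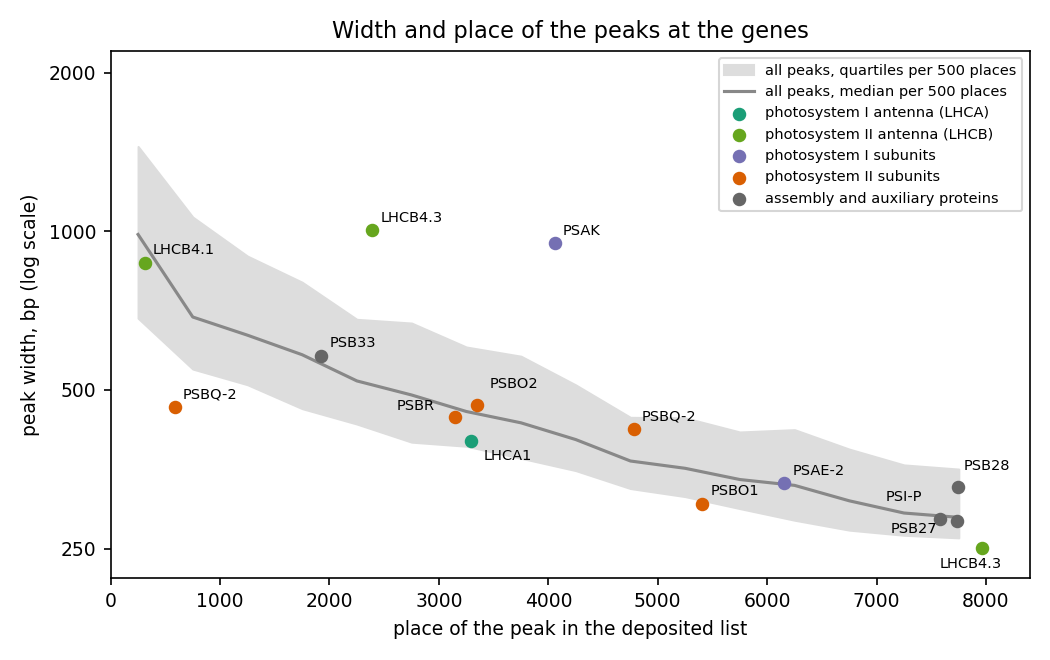
Width of the 15 peaks counted for these genes (y axis, bp, log scale) against their place in the deposited list (x axis), coloured by role; the grey line and band give the median and quartiles of all peaks per 500 places. LHCB4.1 stands at place 310, PSAK at 948 bp lies above the band, and the 251 bp peak of LHCB4.3 stands near the end of the list.

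Beyond the near flanks the light-harvesting and photosystem genes lay farther from peaks than other genes. Their median distance to the nearest midpoint was 8549 bp, beside 4883.5 bp for all protein-coding genes. Within 2000 bp the shares were 30.8% and 31.8%, and within 10000 bp they were 53.8% and 69.6%. A distance of more than 10000 bp was found for 24 of the 52 genes (46.2%), among them 9 of 15 LHCB genes, and for 30.4% of all genes. The median was 18286 bp for LHCB genes, 8447.5 bp for LHCA genes, 7487.5 bp for photosystem I subunits, 6898.5 bp for photosystem II subunits and 646 bp for the auxiliary group. The median number of peaks within 50 kb of the gene's centre was 7 for the 52 genes and 7 for all, but 4 for the LHCB genes; its part in the distances was not tested. These differences are descriptions of 1 peak list and were not tested, and genes that stand side by side share their nearest peak. The genes compared were not matched for length, which is described below.

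**Figure D4:**
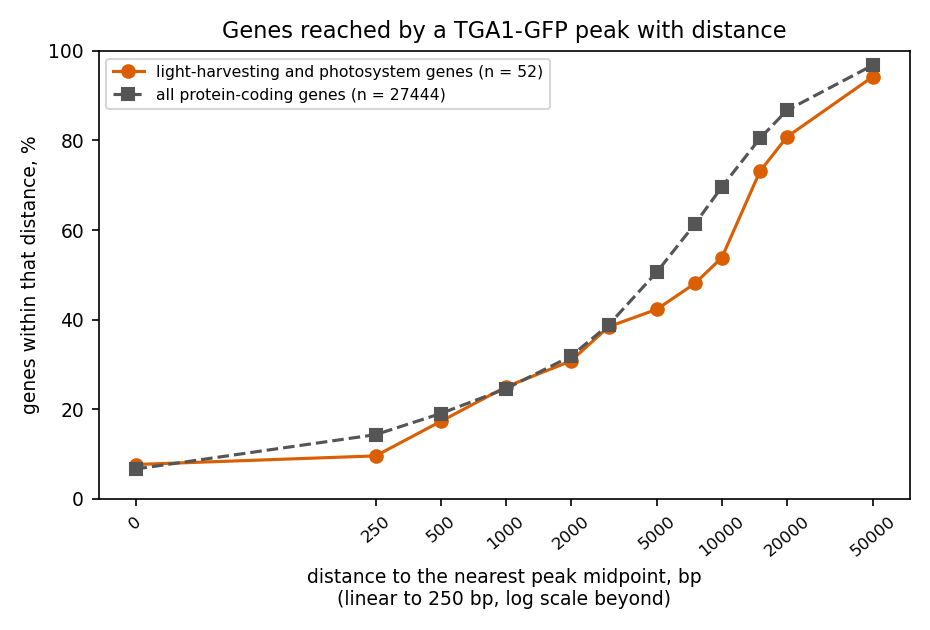
Share of genes (y axis, %) with a peak midpoint within a given distance (x axis, bp, linear to 250 bp and logarithmic beyond), for the 52 light-harvesting and photosystem genes (orange) and all 27444 protein-coding genes (grey). The curves run close to each other from 500 to 3000 bp and part beyond, with 53.8% against 69.6% at 10000 bp. At 250 bp the shares are 9.62% of the 52 genes and 14.4% of all genes.

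Gene size moved with the background. The light-harvesting and photosystem genes were short, with a median of 1385.5 bp (range 720 to 3207 bp) beside 2078 bp for all protein-coding genes, and 51 of the 52 fell in the shorter 2 of 4 equal length classes of all genes. From the shortest class to the longest, 16.4%, 24.7%, 28.1% and 29.2% of all genes had a peak; a longer gene gives a longer window. Among the 19074 genes in the length range of the 52 it was 24.8%. That range reaches 3207 bp through PSBS alone, and the next longest of the 52 was PSA2 at 2025 bp. In the shortest class stood 24 of the 52 and in the next 27, so the 24.8% is not matched for length. Gene-free sequence on both sides together had a median of 1044.5 bp, beside 1855 bp for all genes. It was 1507 bp for the 13 genes with a peak and 834 bp for the 39 without. The part of gene and flank length in the counts and in the distances was not tested.

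Other genes of photosynthesis and their regulators had peaks at 15 of 67 loci, 22.4%, beside the same 24.6% of all genes. These genes were listed with earlier results of these data known. Without the 15 regulators, described below, 7 of the 52 remaining listed genes had a peak, 13.5%. The regulators had 8 of 15, 53.3%, and the 22.4% pools both. Of 13 genes of electron transport and plastid ATP synthase 0 had a peak; the closest was FNR2, a ferredoxin-NADP reductase gene, at 1404 bp. Of 14 Calvin cycle genes 1 had a peak, RCA (AT2G39730), which encodes rubisco activase. Its 410 bp peak (chromosome 2, 16573574 to 16573983) overlapped the gene and was centred 86 bp outside it. No other protein-coding gene lay within 1000 bp of that midpoint. The genes of the rubisco small subunit had none, with RBCS1A at 1720 bp and RBCS1B, RBCS2B and RBCS3B between 45371 and 51402 bp. Together these lists had a peak at 1 of 27 genes, 3.70%, but within 2000 bp, where RPE, FNR2, RBCS1A and FD2 came in, at 5 of 27, 18.5%, beside 31.8% of all genes. They were pooled after their values were seen, and the difference was not tested.

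Chlorophyll synthesis genes had peaks at 3 of 17 loci, 17.6%, and LHC-like genes at 3 of 8, 37.5%, beside 24.6% of all genes. HEMA1 (AT1G58290) and HEMA2 (AT1G09940) encode glutamyl-tRNA reductase, the first committed enzyme of tetrapyrrole synthesis. HEMA1 had peaks of 388 and 351 bp, the latter with its midpoint inside the gene. HEMA2 had a peak of 1388 bp that overlapped the gene, with its midpoint 560 bp from HEMA2 and 417 bp from RAS1. DVR (AT5G18660) had a 249 bp peak, the narrowest width in the list, 642 bp away and 131 bp from AT5G18661. Among the genes of LHC-like proteins, distant relatives of the antenna proteins, SEP1, SEP2 and LIL3:2 had peaks of 495, 261 and 328 bp. The SEP1 peak stood at place 295 but lay closer to AT4G34180, at 79 bp against 725 bp. Likewise the LIL3:2 peak lay closer to BI1, at 74 bp against 464 bp. With each peak given to its nearest gene alone, 1 of 8 LHC-like genes (12.5%) and 1 of 17 chlorophyll synthesis genes (5.88%) had a peak. That compares with 18.6% of all genes.

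Regulators of photosynthesis genes had peaks at 8 of 15 loci, 53.3%, beside the 24.6% of all genes; with the earlier part of the list it was 4 of 15 (13.2% of all genes) and with the wider peaks 3 of 15 (13.0%). The 8 were the phytochrome-interacting factors PIF1, PIF3, PIF4 and PIF5, which hold back greening in the dark, the clock genes CCA1, LHY and TOC1, and STN7, the kinase that phosphorylates LHCII. STN8, the kinase of the photosystem II core, had its nearest midpoint 1773 bp away. The widest were 688 bp at STN7 (chromosome 1, 25875694 to 25876381, place 159), 488 bp at PIF3, 454 bp at PIF1, 401 bp at PIF4, 364 bp at LHY and 348 bp at TOC1. PIF3 had 3 peaks, PIF5 and TOC1 had 2 each, and the midpoints nearest to the PIF genes were 0 to 71 bp from the gene. The activators of greening GLK1, GLK2, HY5, HYH, GNC and GNL had 0 peaks at 6 loci, with nearest midpoints from 4814 to 42208 bp. The peak counted for CCA1 is the 284 bp peak also counted for PSI-P, so 1 region stands in both counts. Gene length was not taken into account for the regulators. Their division into these kinds was made after their values were seen and was not tested.

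**Figure D5:**
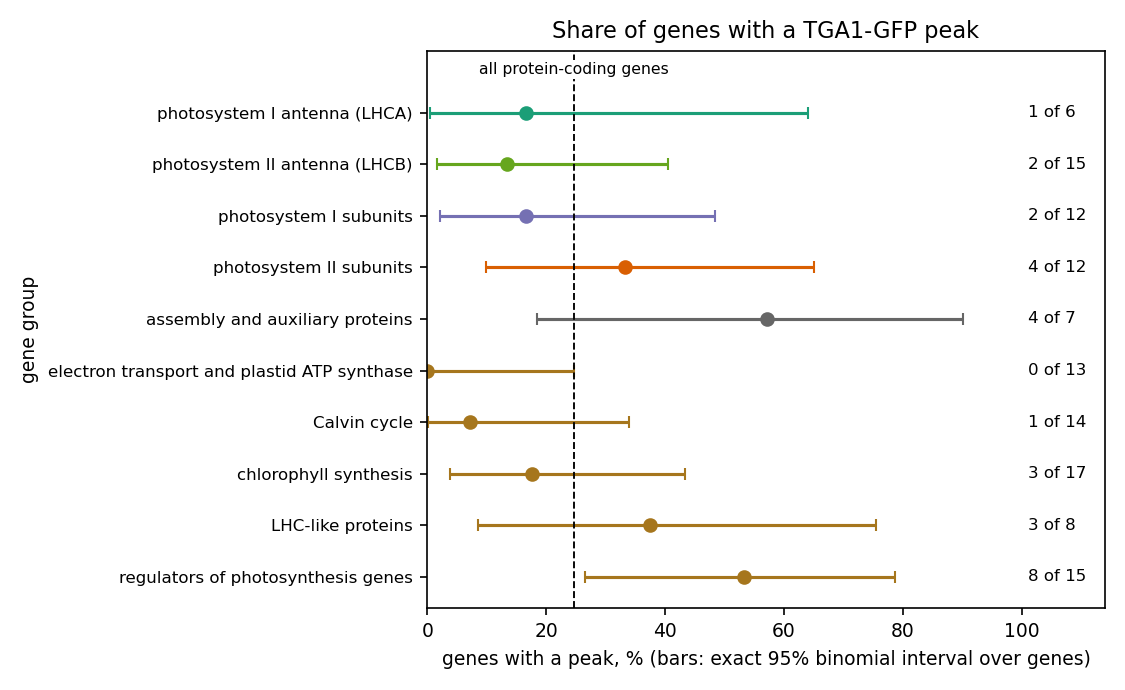
Share of genes with a peak (x axis, %) in the role groups of the 52 genes and in 5 lists of related photosynthesis genes; points are shares, bars exact 95% binomial intervals over genes, numbers at the right the counts, and the dashed line is the 24.6% of all protein-coding genes. Electron transport and plastid ATP synthase stand at 0 of 13 and the regulators at 8 of 15.

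The 11 genes set aside for their meaning had no peak, beside 24.6% of all protein-coding genes with one. They were the aminotransferase genes PSAT and PSAT2, the acyl transferase gene PSAT1 and 8 genes of PsbP-like, PsbQ-like and PsbP-domain proteins, which are relatives of the extrinsic photosystem II subunits but not subunits of it. The closest, PPD1, was 1046 bp from a midpoint.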

How the data were processed

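ChIP-seq libraries from roots of TGA1-GFP plants (1 with GFP antibody, 1 with IgG) were made from 100 ng of DNA, per the labels' protocols; the kit named there is sold for RNA libraries. Bowtie2 and MACS2 with the TAIR10 build are named in the submitters' processing notes. Versions, thresholds, filters and whether peaks were called against IgG were not given in the sources used here. In the deposited file there were peak positions alone. Starts, taken as counted from 0, are printed counted from 1, and each peak is placed by its midpoint.

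Genes came from RefSeq's table for TAIR10.1, of which no coordinates are printed. The nuclear chromosomes were checked against the peaks: 24.4 to 27.8% of midpoints per chromosome fell inside protein-coding genes, and 59.1 to 64.4% after shifts of 5000 bp. The table has no strand, exons or sequence, so gene starts are not told from ends and no promoter or protein is shown. Of the 52 genes, 41 matched by symbol and 11 by synonym. Counts are set beside the same count over all protein-coding genes, with no test, since there is 1 list and no replicate. Members and lists were chosen with earlier results of these data known. The genes named were every member with a peak or with its nearest midpoint from 1000 to 2000 bp away, LHCA1, LHCB1.1 to LHCB1.5 and PSBS, and up to 6 genes with a peak in each related list; other genes were named after their values were seen. The planned motif counts were not made. Code was tested on simulated data. Tools were Python 3.11.15 with pandas 2.3.3, numpy 2.4.6, matplotlib 3.10.9 and scipy 1.17.1.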

Additional observations from a re-analysis of the deposited data

How the results depend on the processing

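The count of 13 of 52 genes with a peak stayed within 1.5 times under other windows (9 within 500 bp, 19.1% of all genes having a peak there; 16 within 2000 bp, 31.8%), with peaks from 1000 bp outside to 200 bp inside a gene end (12; 22.8%) and with any overlap of the gene extended by 1000 bp (14; 26.7%). It also did so without the auxiliary group (9 of 45, 20%), with main symbols alone (11 of 41, 26.8%) and with the 8 PsbP-like, PsbQ-like and PsbP-domain genes added (13 of 60, 21.7%), a choice made after seeing the data. It moved to 4 (7.69%; all genes 6.69%) with midpoints inside the gene, to 6 (11.5%; 14.9%) with any overlap of the gene itself, and to 7 (13.5%) with the nearest gene alone (18.6%), with the earlier part of the list (13.2%) and with the wider peaks (13.0%). These rules count fewer peaks, a shorter window or, for the nearest gene, 1 gene per peak. The share of the 52 genes, or of the changed set, was above that of all genes in 6 of 12 alternatives and below it in 6. The related genes' 22.4%, regulators included, moved to 5.97% with midpoints inside the gene, 11.9% with the earlier part and 7.46% with the wider peaks. No paired analysis was possible because each antibody had 1 library and the peak list carries no replicate. Without read counts or heights, a locus with no peak may hold binding below the authors' threshold, which is not known here.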
